A study of Mus musculus with 4 samples.

Results

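The results concern the transcripts of 10 genes of the hypoxia-inducible factor (HIF) pathway, chosen by name from the 20296 genes of the authors' deposited comparison table: the HIF alpha genes Hif1a, Epas1 and Hif3a, the partner genes Arnt and Arnt2, the oxygen sensor genes Egln1, Egln2, Egln3 and Hif1an, and Vhl. All 10 were in the table and all 10 had an adjusted p. RNA was sequenced from mouse epiblast-like stem cells (EpiLSC), which stand for the epiblast shortly after implantation, and from naive embryonic stem cells (nESC). EpiLSC were collected on day 3 of culture in N2B27 medium on gelatin with activin A at 20 ng/ml and bFGF at 12 ng/ml, whereas nESC were kept in 2i/LIF, a medium with 2 kinase inhibitors and the cytokine LIF. The cell lines R1 and E14TG2a, both mouse embryonic stem cells, gave 1 sample each in either state, so n = 2 per state. No genetic change was made in either state. The oxygen level of the cultures is not given in the sources used here.

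HIF is a pair of proteins, an alpha subunit and an ARNT partner, that binds DNA and turns on genes for glycolysis, blood vessel growth and the response to low oxygen. In oxygen, the prolyl hydroxylases encoded by Egln1, Egln2 and Egln3 mark the alpha subunit, the VHL protein binds the mark and the subunit is destroyed. The asparaginyl hydroxylase encoded by Hif1an blocks its contact with coactivators instead. Alpha subunits are thus controlled largely as proteins, and the table measures only RNA. In mouse cells HIF1A is known for its role in the metabolic switch between naive and epiblast-type pluripotency.

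The table compares the states and has no column per sample. Positive log2 fold changes were read as higher in EpiLSC, because the header does not state the direction. In the authors' deposited table the epiblast markers Fgf5 (8.40), Pou3f1 (8.04), Dnmt3b (4.63) and Otx2 (3.90) had positive log2 fold changes, and the naive markers Esrrb (-8.54), Tfcp2l1 (-7.71), Klf4 (-6.29) and Zfp42 (-6.22) negative ones. Pou5f1, which both states express, stood at -0.19 (SE 0.76) in the authors' deposited table and did not pass. Levels per state are the mean normalized read count split by the fold change, and they carry no error. Spread within a state includes the difference between the lines, and the states also differ in medium, so state and medium cannot be told apart. Less RNA per cell and fewer cells with the RNA cannot be told apart either. Values of single libraries were recovered for 8 of the 10 genes, because each deposited mean is a sum of whole reads of 4 libraries, each divided by a size factor. The 4 values are given from high to low. No library was tied to a sample or a line. The side of the fold change on which each stands was found by arithmetic from the fold changes, not from labels. It is used where 1 library is left out and in the closing observations.

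Of the 10 genes, 2 rose and 1 fell in EpiLSC, by the authors' DESeq2 Wald test with a Benjamini-Hochberg adjusted p under 0.05. Over all 16361 genes tested, 13.9% passed, with 7.67% rising and 6.23% falling. Epas1 fell 55.4-fold, a size that ran from 13.9-fold to 282-fold in recovered reads when 1 library was left out, Arnt2 rose 6.78-fold and Egln3 rose 3.98-fold. In the other 7 genes no change was called, and only for Hif1an did the 95% interval lie within a 4-fold change either way. Of all tested genes with no call, 5856 of 14087 had such an interval. The median log2 fold change of the 10 genes was 0.36, against 0.02 over all genes tested. No called gene in the whole table had moved by less than 1.68 on the log2 scale, so smaller changes were not called at this number of libraries. With other rules for a call, the same 3 genes passed at an adjusted p under 0.1 (16.6% of all genes tested passed) and with the table limited to means of at least 100 (11.7%). Without the authors' filter on low means 2 of the 10 passed (10.6%), and against a 2-fold change 1 of the 10 (6.91%).

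**Figure D1:**
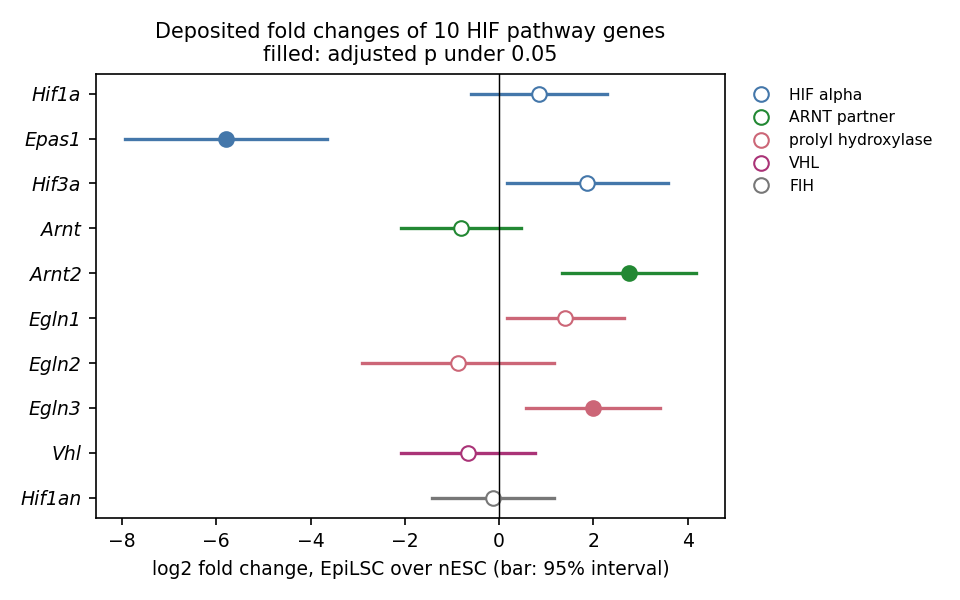
Log2 fold changes of the 10 genes, EpiLSC over nESC, with 95% intervals as bars, coloured by role, and filled where the adjusted p is under 0.05. Epas1 lies far left at -5.79, and Arnt2 (2.76) and Egln3 (1.99) lie to the right of 0, while Hif3a and Egln1 have intervals that leave out 0 but unfilled points.

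Among the alpha genes, Epas1, which encodes HIF-2 alpha, had the largest change. Its recovered values in the 4 libraries were 1345, 187, 24.2 and 2.72 normalized reads, from 1716, 164, 30 and 2 whole reads. No 2 libraries were alike, and the highest stood 7.18 times above the next. Its implied level was 13.8 normalized reads in EpiLSC and 766 in nESC. Left without the highest library, the recovered reads averaged 13.5 on the EpiLSC side of the fold change and 187 on the nESC side, a 13.9-fold difference. Leaving out any other library gave 31.6-fold, 99.8-fold or 282-fold, lower on the EpiLSC side each time, with no test. The authors' deposited table put the log2 fold change at -5.79 (SE 1.10, 95% interval -7.94 to -3.64, adjusted p 4.35e-06 by DESeq2). That standard error was larger than those of 94.4% of the 3618 tested genes whose mean lay within a factor of 2 of its own, which had a median of 0.72. The direction of the fall was well outside its error, and its size was known only to within this wide interval.

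Hif1a, which encodes HIF-1 alpha, was the most abundant of the 10 genes by its deposited mean of 10954 normalized reads, in exons of 5.90 kb in all. Its implied level was 14089 normalized reads in EpiLSC and 7818 in nESC. The authors' deposited table put the log2 fold change at 0.85 (SE 0.74, 95% interval -0.60 to 2.29), which did not pass (adjusted p 0.651 by DESeq2). A rise of up to 4.91-fold and a fall of up to 1.51-fold both lay within that interval. More than 1 set of whole reads could give its mean, so values of single libraries were not recovered.

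Hif3a encodes the third alpha subunit, some forms of which inhibit the other HIF proteins. Its 4 libraries had 864, 246, 227 and 76.5 normalized reads. A single library stood above the rest and the middle values were close together. The implied level was 555 in EpiLSC and 152 in nESC. At 1.87 (SE 0.87) on the log2 scale by the authors' deposited table, the gene had an unadjusted p of 0.0321 and did not pass after adjustment (adjusted p 0.167 by DESeq2).

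Set side by side per kilobase of exon, so that genes of different length can be compared, the alpha genes kept Hif1a on top in both states. Hif1a had 2390 normalized reads per kilobase in EpiLSC and 1326 in nESC, and made up 96.6% of the summed alpha level in EpiLSC and 89.3% in nESC. Epas1 had 2.47 reads per kilobase in EpiLSC and 137 in nESC. Its share was 0.0998% in EpiLSC and 9.22% in nESC. Hif3a had 82.7 reads per kilobase in EpiLSC and 22.6 in nESC, so it lay above Epas1 in EpiLSC and below it in nESC. These shares have no error of their own and the change of order was not tested.

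**Figure D2:**
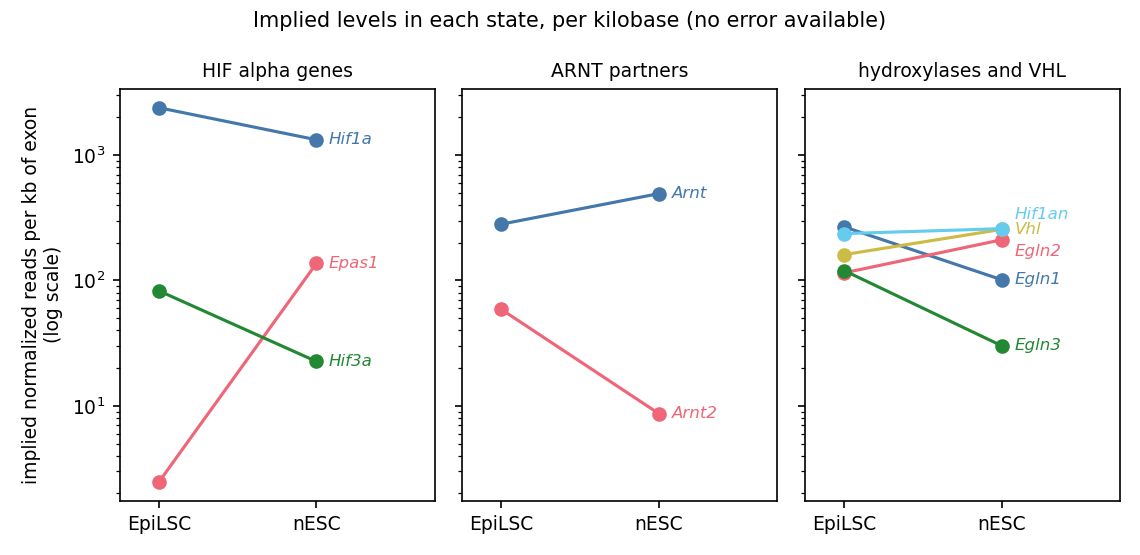
Implied normalized reads per kilobase of exon on a log scale, EpiLSC at the left and nESC at the right of each panel, with 1 line per gene. The lines of Epas1 (2.47 in EpiLSC, 137 in nESC) and Hif3a cross, and Hif1a is the highest gene in both states.

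The ARNT partners moved in opposite directions by value, and Arnt2 alone passed. Arnt2, a partner of HIF alpha and of the neural factor SIM1, had 605, 298, 73.7 and 59.4 normalized reads in the 4 libraries. The widest step lay in the middle, where the second value was 4.04 times the third. The implied level was 451 in EpiLSC and 66.5 in nESC. Without the library of 605 reads, on the EpiLSC side of the fold change, the recovered reads stood 4.48-fold higher in EpiLSC, and 9.09-fold without that of 298, with no test. Its log2 fold change in the authors' deposited table was 2.76 (SE 0.73, 95% interval 1.34 to 4.18, adjusted p 0.00187 by DESeq2). The call ended when the change was tested against 2-fold instead of none (adjusted p 0.164).

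Arnt, the general partner that is also shared with the dioxin receptor AHR, had an implied level of 2254 in EpiLSC and 3951 in nESC. By the authors' deposited table it did not pass (-0.81, SE 0.65, 95% interval -2.08 to 0.46, adjusted p 0.597 by DESeq2). Per kilobase, Arnt had 282 normalized reads in EpiLSC and 493 in nESC, and Arnt2 had 58.7 in EpiLSC and 8.65 in nESC. Arnt2 thus made up 17.3% of the summed partner level in EpiLSC and 1.72% in nESC, with no error available for the shares.

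**Figure D3:**
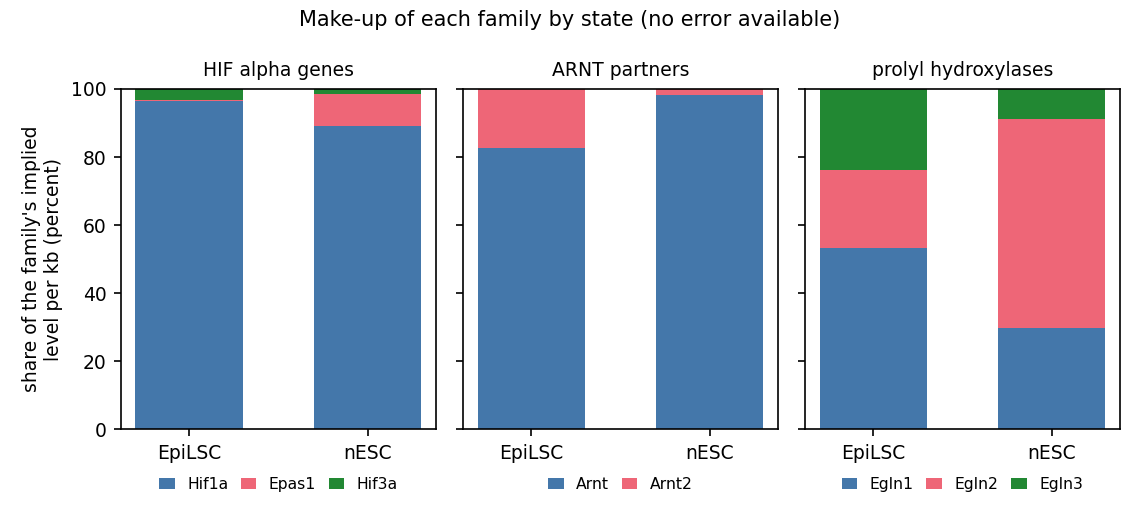
Share of each family's summed implied level per kilobase, in percent, EpiLSC left and nESC right in each panel. Hif1a fills 96.6% of the alpha bar in EpiLSC, Arnt2 takes 17.3% of the partner bar in EpiLSC against 1.72% in nESC, and Egln2 takes 22.9% of the hydroxylase bar in EpiLSC against 61.6% in nESC.

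The prolyl hydroxylase genes are shown first by their promoters, since Egln1 and Egln3 are known HIF targets, and the promoter of Arnt2, the partner gene that rose, is set beside them. The windows come from RefSeq on build GRCm38.p6 and run from 250 bases before to 50 after the start site. Capitals mark the core of the HIF binding motif, ACGTG or GCGTG, on either strand. Egln3 was taken from chr12:54203825-54204124, Egln1 from chr8:124949205-124949504 and Arnt2 from chr7:84409989-84410288, all on the minus strand, and each is printed 5′ to 3′ in the direction of the gene.
Egln3: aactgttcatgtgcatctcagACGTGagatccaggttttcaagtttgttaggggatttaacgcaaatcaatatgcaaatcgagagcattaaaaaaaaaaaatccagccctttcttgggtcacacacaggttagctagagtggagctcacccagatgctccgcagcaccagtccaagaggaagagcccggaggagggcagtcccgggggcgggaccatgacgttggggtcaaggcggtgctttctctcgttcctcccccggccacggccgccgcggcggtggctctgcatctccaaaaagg
Egln1: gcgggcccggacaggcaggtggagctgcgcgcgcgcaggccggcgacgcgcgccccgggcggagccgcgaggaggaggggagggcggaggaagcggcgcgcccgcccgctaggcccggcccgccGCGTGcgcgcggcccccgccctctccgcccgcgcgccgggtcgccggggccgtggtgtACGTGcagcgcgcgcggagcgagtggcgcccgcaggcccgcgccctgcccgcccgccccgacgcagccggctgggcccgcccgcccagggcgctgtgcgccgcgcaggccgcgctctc
Arnt2: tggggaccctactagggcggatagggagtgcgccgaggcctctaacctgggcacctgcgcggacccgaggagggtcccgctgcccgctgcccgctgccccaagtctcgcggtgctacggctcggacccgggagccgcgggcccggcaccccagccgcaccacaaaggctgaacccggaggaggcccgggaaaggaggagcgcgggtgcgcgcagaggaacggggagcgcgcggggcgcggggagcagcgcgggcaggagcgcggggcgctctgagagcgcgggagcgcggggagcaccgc

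The Egln3 window held ACGTG 1 time, starting 229 bases before the start site. In the Egln1 window ACGTG began 68 bases and GCGTG 126 bases before it, and the Arnt2 window held neither. Egln2, whose sequence is not printed and whose change did not pass, had the most matches: 3 of ACGTG and 3 of GCGTG in its window at chr7:27166753-27167052. A window was found for 9 of the 10 genes, and 6 of these 9 had a window with either motif. Egln2 had another window, at chr7:27165679-27165978, with GCGTG 1 time. Counted by window, 7 of 10 held either motif. Of 32851 promoter windows of the same kind, 43.8% held either motif and 19.6% held ACGTG on either strand, where CACGTG counts on both strands. A match describes letters and not a bound site.

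Egln3, which encodes the hydroxylase PHD3, had 401, 238, 96.4 and 63.9 normalized reads in the 4 libraries. Both upper values came from 295 whole reads, and the second was 2.47 times the third. The implied level was 320 in EpiLSC and 80.3 in nESC. The authors' deposited table put the log2 fold change at 1.99 (SE 0.72, 95% interval 0.58 to 3.41, adjusted p 0.0432 by DESeq2). This call lay close to the threshold and ended when p-values were adjusted over all genes with a p (adjusted p 0.0536), and when the change was tested against 2-fold (adjusted p 0.993).

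Egln1 encodes PHD2, the main oxygen sensor for HIF-1 alpha in most cells. Its 4 libraries had 1046, 880, 393 and 336 normalized reads, with the widest step again in the middle, where the second was 2.24 times the third. The implied level was 963 in EpiLSC and 364 in nESC. By the authors' deposited table its log2 fold change was 1.40 (SE 0.63, 95% interval 0.16 to 2.64) with an unadjusted p of 0.0265, which did not pass (adjusted p 0.143 by DESeq2). Its standard error was smaller than that of most tested genes of like mean, since only 9.63% of 3851 had a smaller one.

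Egln2, which encodes PHD1, had 969, 576, 213 and 68.0 normalized reads in the 4 libraries, each well below the one before it. The implied level was 322 in EpiLSC and 591 in nESC, and the log2 fold change in the authors' deposited table was -0.88 (SE 1.04, 95% interval -2.92 to 1.17, adjusted p 0.818 by DESeq2). Per kilobase of exon, Egln1 was the highest of the hydroxylases in EpiLSC, with 268 normalized reads, followed by Egln3 with 120 and Egln2 with 115. In nESC the order was Egln2 with 211, Egln1 with 101 and Egln3 with 30.2. Egln2 made up 22.9% of the summed hydroxylase level in EpiLSC and 61.6% in nESC, and its own change did not pass, so this order has wide error.

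**Figure D4:**
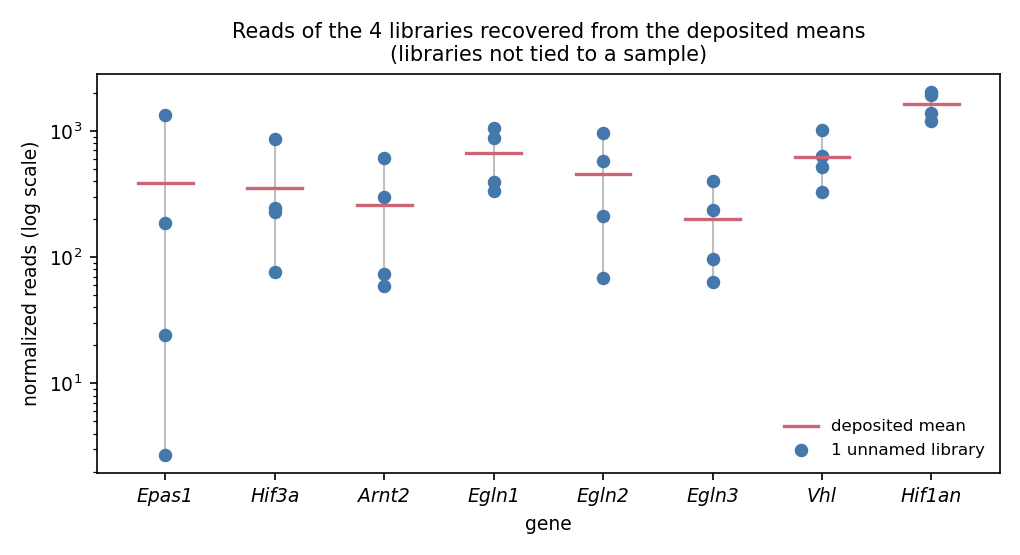
Normalized reads of the 4 unnamed libraries (blue points) recovered for 8 genes on a log scale, with the deposited mean as a red bar. Epas1 spreads from 2.72 to 1345, Arnt2 and Egln1 have their widest step between the second value and the next, and Hif1an lies within 1191 to 2045.

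Vhl, whose protein recruits hydroxylated HIF alpha to a ubiquitin ligase, had 1012, 633, 520 and 331 normalized reads in the 4 libraries. Its implied level was 482 in EpiLSC and 767 in nESC, and by the authors' deposited table the change did not pass (-0.67, SE 0.72, 95% interval -2.09 to 0.75, adjusted p 0.776 by DESeq2). Hif1an, which encodes the asparaginyl hydroxylase FIH, had 2045, 1934, 1378 and 1191 normalized reads, the narrowest spread of the 8 genes with recovered values. The implied level of Hif1an was 1563 in EpiLSC and 1712 in nESC, and the authors' deposited table put its log2 fold change at -0.13 (SE 0.66, 95% interval -1.43 to 1.17).

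Among the 35 genes listed as further regulators of HIF, 0 rose and 0 fell by the authors' DESeq2 Wald test. Of all genes tested, 13.9% were called. This count depends on the lists: the coactivator gene Ncoa1 was among the 35, but the coactivator gene Ncoa3, which fell, was counted with the bHLH-PAS genes. By the same test 3 of the 35 had an unadjusted p under 0.05, against 3558 of all 16361 genes tested. The median log2 fold change of these regulators was -0.19, and 20 of the 35 had a 95% interval within a 4-fold change either way. Of all tested genes with no call, 5856 of 14087 had such an interval. For the partners of VHL in its ubiquitin ligase, the authors' deposited table listed log2 fold changes of 0.02 (SE 1.10) for Elob, 0.89 (SE 0.77) for Eloc and -0.19 (SE 0.68) for Cul2. The authors' deposited table listed -1.59 (SE 0.78, adjusted p 0.198 by DESeq2) for Cited2, a competitor of HIF alpha for coactivators, and -0.19 (SE 1.03) for P4htm, a hydroxylase of the endoplasmic reticulum.

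Of the other bHLH-PAS genes and coactivators on the list, 9 of 12 had an adjusted p, 1 rose and 1 fell. The share was 22.2%, against 13.9% of all genes tested. This list too was chosen with earlier results of these data known, and the share was not tested. The coactivator gene Ncoa3 fell to an implied level of 1414 in EpiLSC, against 5239 in nESC (authors' deposited table: log2 fold change -1.89, SE 0.67, adjusted p 0.0378 by DESeq2). By the authors' deposited table Npas1, a neuronal factor, rose by 6.91 (SE 2.26, adjusted p 0.0203 by DESeq2) at a mean of only 10.4 normalized reads, so its size rests on few reads.

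Known HIF target genes were called in both directions. In the metabolic list 2 of 33 tested genes rose and 4 fell, a share of 18.2%, near the 13.9% of all genes tested. The median log2 fold change was 0.14. By the authors' deposited table, Car12, which encodes a membrane carbonic anhydrase, rose by 3.99 (SE 0.90), as did Slc16a3, an exporter of lactate, by 2.71 (SE 0.90). Car12 had an implied level of 132 normalized reads in EpiLSC and 8.30 in nESC, so its fold rests on few nESC reads. Ak4, a mitochondrial adenylate kinase gene, fell to an implied 1868 normalized reads in EpiLSC, against 8568 in nESC, and Hk1, a hexokinase gene, to 528 in EpiLSC against 3225 in nESC. The call of Hk1 lay close to the threshold (authors' deposited table: log2 fold change -2.61, SE 0.95, adjusted p 0.0450 by DESeq2). It ended without the authors' filter on low means, with the table limited to means of at least 100, and against a 2-fold change. Slc2a3, which encodes a glucose transporter, fell to 5752 in EpiLSC against 40312 in nESC, and Pfkp, of the phosphofructokinase step, to 1615 in EpiLSC against 16990 in nESC. Of the widely used hypoxia markers, the authors' deposited table listed 0.44 (SE 0.88) for Slc2a1, 0.34 (SE 0.66) for Pdk1 and 1.09 (SE 0.64) for Ldha, none of which passed.

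In the list of other targets 10 of 47 tested genes rose and 5 fell, a share of 31.9%, against 13.9% of all genes tested. The median log2 fold change was 0.81. By the authors' deposited table, the rises with the smallest p were those of Bhlhe41 (6.15, SE 0.81), a repressor of the clock, Flt1 (6.97, SE 0.93), a VEGF receptor, Cxcl12 (5.80, SE 0.98), a chemokine, and Mmp2 (4.05, SE 0.82), a gelatinase. In the same authors' deposited table, the falls included those of Vim (-2.79, SE 0.66), an intermediate filament gene, Kdr (-4.06, SE 0.99), the other main VEGF receptor, and Edn1 (-4.92, SE 1.20), a vasoconstrictor. Edn1 had an implied level of 2.69 normalized reads in EpiLSC and 81.4 in nESC, so its fold rests on few reads. Kdr was much the same, with 4.93 in EpiLSC and 82.0 in nESC. The 4 rises named also rest on few nESC reads for their size. Implied nESC levels were 4.43 for Flt1, 7.62 for Bhlhe41, 11.7 for Cxcl12 and 12.4 for Mmp2. For comparison, by the authors' deposited table, Vegfa (0.50, SE 0.93) and the mitophagy gene Bnip3 (1.62, SE 0.82, adjusted p 0.223 by DESeq2) did not pass. Many of these genes answer to other signals too, and the list was read from its counts only. It was chosen with earlier results of these data known, and its share was not tested against that of all genes.

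**Figure D5:**
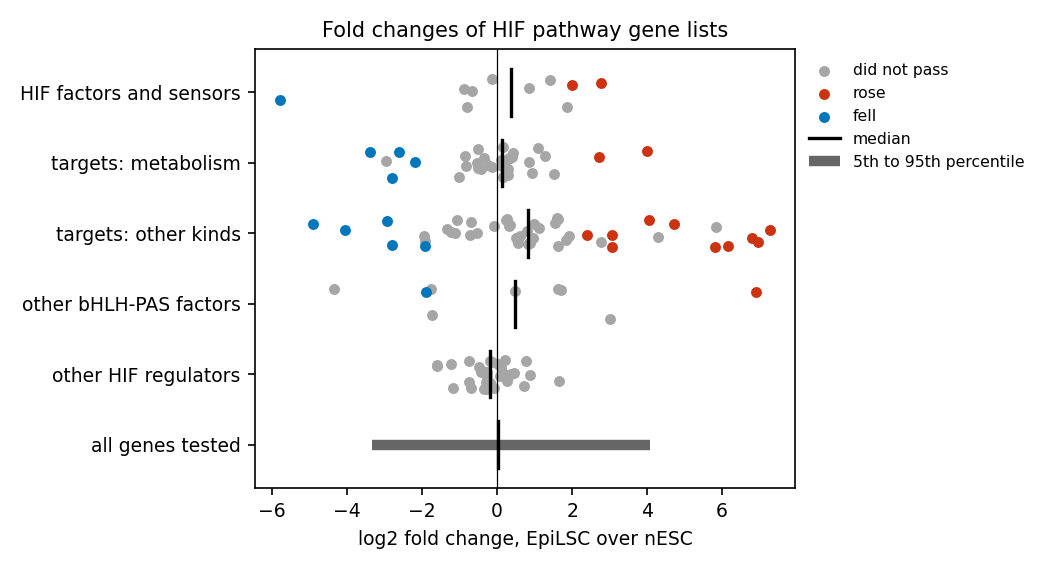
Log2 fold changes, EpiLSC over nESC, of the tested genes of each list, with the median as a black line and, at the bottom, the 5th to 95th percentile of all genes tested. The other HIF regulators run from -1.61 to 1.65 with no call, while both target lists have called genes on either side.

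Of the markers of fibroblasts and feeder cells some were called too. In the authors' deposited table, of 7 tested 3 rose, namely Thy1 (4.60, SE 0.97), Dcn (6.76, SE 1.76) and Mmp2, and 0 fell. The share was 42.9%, against 13.9% of all genes tested. The fibroblast markers Pdgfra (-2.38, SE 1.03) and Pdgfrb (-1.24, SE 1.00) had negative values in the authors' deposited table and did not pass. Col1a2 (2.69) and Col1a1 (1.55) had positive values there and did not pass either, at means of 15.8 and 6.07 normalized reads. The median log2 fold change of the 7 tested markers was 2.69, against 0.02 over all genes tested. The summed implied level over all 10 listed genes was 490 normalized reads in EpiLSC and 171 in nESC. Of this, Mmp2, also on the target list, had 205 in EpiLSC and 12.4 in nESC. None was at 0 in the mean, and Col3a1, Lum and Postn had no adjusted p. The part of such cells in the results was not tested. Genes that overlap the members in GENCODE M21 and are in the table had few reads: Gm15283, antisense to Hif1a, had a mean of 12.5 normalized reads, and Cyp2t4, on the strand opposite to Egln2, one of 2.23, per the authors' deposited table. Other overlapping genes were not in it, among them Gm49321, a protein-coding gene on the same strand as Hif1a. Any effect of these on the counts was not tested.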

How the data were processed

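The 4 libraries were made from total RNA depleted of ribosomal RNA, with a strand-specific kit, per the labels' protocols. The submitters' processing notes name the authors' tools as TopHat2, HTSeq and DESeq2 1.8.2, and build mm9. For the annotation and the strand setting of the counting, nothing is given in the sources used here.

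The mean in the deposited table is a signal, read counts that the authors divided by size factors and averaged over libraries. The log2 fold changes and standard errors are the authors' DESeq2 values, per the file headers. The authors' deposited Wald score was the fold change over its standard error (largest gap 5.9e-14), the deposited p-value its two-sided normal p, and the adjusted p the Benjamini-Hochberg value over 16361 genes (largest gap 2.3e-15). The other 3935 genes, with means up to 3.74, had no adjusted p and counted as untested. Total depth per sample is unknown, and the deposited means summed to 27888553.

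Levels split 2 times the mean between the states in the ratio of the fold change, as though all libraries weighed the same. Intervals, at 95%, are Wald intervals from the deposited standard errors. Exon lengths are unions of GENCODE M21 exons, and names were matched without the version (20167 of 20296 IDs). Whole reads were recovered as the single set of 4 whole numbers whose weighted sum gave the printed mean, from steps between the lowest means. For Hif1an the fold change was also used, to within 0.7% of the implied nESC sum, and for Hif1a and Arnt more than 1 set was left. The size factors so found ran from 0.735 to 1.28.

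The members and the 7 gene lists were chosen with earlier results of these data known. Named are the 10 members, fixed genes, and the called genes of each list, or where over 8 were called the 4 with the smallest p each way, of which 1 is not reported here. Calls and recovery were tested on simulated data. Python 3.11.15, numpy 2.4.6, pandas 2.3.3 and scipy 1.17.1 were used.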

Additional observations from a re-analysis of the deposited data

How the results depend on the processing

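Under the 5 alternatives run, 47 of 50 calls of the 10 genes stayed on their side of the threshold. These alternatives use the deposited fold changes, so they do not test direction. Tested against a 2-fold change, Arnt2 (adjusted p 0.164) and Egln3 (0.993) lost their calls, which leaves 1 called gene of the 10. Without the authors' filter on low means Egln3 also lost its call (0.0536), because more genes are adjusted for. Over the whole table, 1251 genes were called among those with a mean of 100 or more (11.7% of 10713) and 1130 against a 2-fold change (6.91%), compared with 2274. Of the other bHLH-PAS genes 1 of 4 was called at a mean of 100 or more (11.7% of all genes). Against a 2-fold change 0 of 9 were called (6.91% of all genes), and in the main test, DESeq2 values, 2 of 9 (13.9%). An unadjusted p under 0.05 was found in 4 of 9, against 3558 of all 16361 genes tested. At an adjusted p under 0.1, 4 of 9 were called (16.6% of all genes). The same threshold called 1 of the 35 other HIF regulators, the coactivator gene Ncoa1, named after its value was seen. Of the metabolic targets 2 of 33 were called against a 2-fold change (6.91% of all genes), and of the other targets 9 of 33 at a mean of 100 or more (11.7% of all genes). Recentring moved fold changes by 0.0039, left the calls of the 10 genes as they were and gave 2273 calls over the whole table. No paired analysis was possible because no library could be tied to a line. No fit could be repeated without a sample, since the table has no columns per sample. The ratio of recovered reads was an alternative chosen after seeing the data and has no test. Without each library in turn it kept its sign in 6 of 8 genes. It changed sign in Egln2 (log2 range -3.12 to 0.59) and Hif1an (-0.52 to 0.18). How often other genes keep their sign was not counted, so 6 of 8 has no share to be read against. For Epas1 the log2 ratio ran from -8.14 to -3.80, for Arnt2 from 2.16 to 3.18 and for Egln3 from 1.57 to 2.32. For Egln1 the range was 1.27 to 1.52, for Hif3a 0.70 to 2.86 and for Vhl -1.21 to -0.11. Epas1 had the libraries with the fewest whole reads of the 8 genes, 2 and 30. Its upper libraries, with 1716 and 164 whole reads, also lay 7.18 times apart in normalized reads. The part of depth in this spread was not tested.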

Other observations

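The deposited fold change shows which libraries the authors' model set against each other. In 300 genes with a mean of 50 to 200, the log2 ratio of 1 pair of libraries (size factors 1.24 and 0.735) over the other pair (1.28 and 0.876) differed from the deposited log2 fold change by a median of 0.00358, whereas the other ways to pair the 4 libraries gave median gaps of 0.777 and 0.515. This is arithmetic of the table: it gives each library a side of the fold change but no line or sample, and no test was made with the libraries.

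On that arithmetic, Epas1 had 24.2 and 2.72 normalized reads in the pair on top of the fold change and 1345 and 187 in the pair below it. The libraries within a pair thus lay 8.90 and 7.18 times apart, while the pairs did not overlap. Arnt2 had 605 and 298 above and 73.7 and 59.4 below, Egln3 had 401 and 238 above and 96.4 and 63.9 below, and Egln1 had 1046 and 880 above and 393 and 336 below. Hif3a had 864 and 246 above and 227 and 76.5 below, so its middle values, 246 and 227, came from opposite sides and nearly met. Egln2 (576 and 68.0 above, 969 and 213 below), Vhl (633 and 331 above, 1012 and 520 below) and Hif1an (1934 and 1191 above, 2045 and 1378 below) had pairs that overlapped. The lines are mixed within each pair and could not be matched across pairs. An overlap thus does not show that the states were alike within a line. How often pairs overlap in other genes was not counted.

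In Epas1, Hif3a, Arnt2 and Egln2 the library of each pair with the larger size factor was the higher one, and in Egln1, Vhl and Hif1an the lower one. In Egln3 the order differed between the pairs. These values are already divided by the size factors. How often such an order occurs in other genes was not counted, and whether it follows depth or cell line was not tested.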
